A study of Homo sapiens with 8 samples.

Results

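Oxidative phosphorylation is carried out in the inner mitochondrial membrane by a respiratory chain and an ATP synthase. Complex I (NADH dehydrogenase) and complex II (succinate dehydrogenase) pass electrons to ubiquinone, complex III passes them on to cytochrome c, and complex IV (cytochrome c oxidase) hands them to oxygen. Complexes I, III and IV pump protons, and complex V (ATP synthase) uses the proton gradient to make ATP. Most subunits are encoded in the nucleus and imported, and a small set is encoded in mitochondrial DNA. Those mitochondrial transcripts were not analysed here.

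The nuclear genes were chosen by symbol: names that begin with NDUFA, NDUFB, NDUFC, NDUFS or NDUFV and a digit, the SDHA to SDHD genes, names that begin with UQCR, with COX and a digit from 4 to 8, or with ATP5, plus CYC1 and CYCS. The pattern matched 91 of 19035 listed symbols, and 84 of them had a mean of at least 1 TPM (transcript abundance per length, scaled to a common total in every library) over the 6 RNA libraries. By what the proteins are known to do, 36 of the 84 encode complex I subunits, 4 complex II, 10 complex III, 13 complex IV and 15 complex V, and 1 (CYCS) encodes cytochrome c. NDUFA4 was placed in complex IV, where its protein is now assigned. The other 5 match the name pattern but were not counted as subunits of a complex. They are ATP5S, ATP5SL (now DMAC2, a complex I assembly factor), COX4NB (now EMC8, of the endoplasmic reticulum) and the readthrough transcripts ATP5J2-PTCD1 and NDUFC2-KCTD14.

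RNA came from KPL-1, a line of human breast cancer cells, with a doxycycline-inducible Cas9 (iCas9), at day 7 of doxycycline. There were 3 libraries of cells with a guide against SETD1A (sgSETD1A, labelled as SETD1A knockout) and 3 of cells with an empty guide vector (sgEmpty, labelled as wild type). Both groups carried the inducible Cas9 and received doxycycline. SETD1A is a methyltransferase of histone H3 lysine residues at promoters, and the comparison asks what its targeting does to transcript levels. The labels do not say whether the cells were clones or pools, nor whether the replicates came from separate cultures; the p-values therefore cover only how far these libraries vary, and that may be technical variation. The labels' guide pool libraries were not used.

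SETD1A itself measured 9.36, 11.3 and 10.7 TPM in the sgSETD1A libraries, against 17.5, 17.5 and 18.1 TPM in the sgEmpty libraries (-0.71 log2; limma adjusted p = 9.13e-05). All 8 luminal epithelial markers checked, among them KRT8, ESR1 and GATA3, were above 1 TPM, with sums of 16353 to 16870 TPM in sgSETD1A and 14370 to 15441 TPM in sgEmpty libraries. The 4 immune markers summed to at most 0.424 TPM in sgSETD1A and 0.184 TPM in sgEmpty libraries. The 4 fibroblast and endothelium markers summed to 2.46 to 4.16 TPM in sgSETD1A and 2.56 to 3.15 TPM in sgEmpty libraries. Among those, only COL1A1 averaged at least 1 TPM. The 3 muscle markers summed to at most 0.153 TPM in sgSETD1A and to 0 in sgEmpty libraries. Depth is unknown, because TPM keeps none. In all, 41.5% of the 11885 tested genes were called (limma, Benjamini-Hochberg adjusted p under 0.05), 28% higher and 13.5% lower in sgSETD1A, and the overall median change stood at 0.07 on the log2(TPM + 1) scale.

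The genes moved in both directions, and the share called in either direction was close to that of all genes. Of the 84, 19 rose, 18 fell and 47 did not pass, so that 44% were called, against 41.5% of all tested genes. The lower calls made up 21.4% of the 84, against 13.5% of all genes, and the higher calls 22.6%, against 28%. Their median change was 0.05 log2, beside 0.07 for all tested genes, and 54 of the 84 lay below that overall median. The balance depended on scaling. After median-ratio rescaling 6 rose and 23 fell, beside 14.9% higher and 19.6% lower (34.5% called) among all genes. After quantile normalization 8 rose and 21 fell, beside 18% and 17.3% (35.3% called). No gene called under more than one scaling changed direction. The groups did not overlap in 46 of the 84 genes (54.8%), against 53.7% of all tested genes.

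Most changes were small. Calls at least 0.3 log2 away from the median of all genes numbered 13 of 84 (15.5%), against 16.6% of all tested genes, with 2 higher (2.38% of the 84, against 7% of all tested genes) and 11 lower in sgSETD1A (13.1%, against 9.63%). Leaving out each library in turn kept 24 of the 37 calls every time. The share of all tested genes called without sgSETD1A replicate 1, 2 or 3 was 42.7% (29.1% higher, 13.6% lower), 33.1% (21.5% and 11.7%) and 31.8% (20.5% and 11.3%). Without sgEmpty replicate 1, 2 or 3 it was 35.2% (23.6% and 11.6%), 30.8% (19.9% and 10.9%) and 33% (22.2% and 10.8%). It was 41.4% (27.9% and 13.4%) at a pseudocount of 0.1, 41.6% (28% and 13.6%) at 5, 28% (18.8% and 9.14%) without a filter and 44.2% (29.6% and 14.5%) at a mean of at least 5 TPM. In limma without a variance trend it was 38.2% (25.7% and 12.5%), and with a replicate block 39.1% (26.1% and 12.9%). Over every alternative tried, 5 genes were higher each time (COX6C, NDUFS6, NDUFB2, ATP5L and NDUFB6). Another 12 were lower each time (NDUFA7, SDHC, NDUFB5, ATP5O, ATP5SL, NDUFB3, COX7C, ATP5G2, COX5B, COX7A2L, NDUFA8 and UQCRC2). No share of all tested genes called under every alternative stands beside these counts, so they do not set the 84 genes apart. These 17 reached into each of the 5 complexes, as the plot of changes by complex shows.

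**Figure D1:**
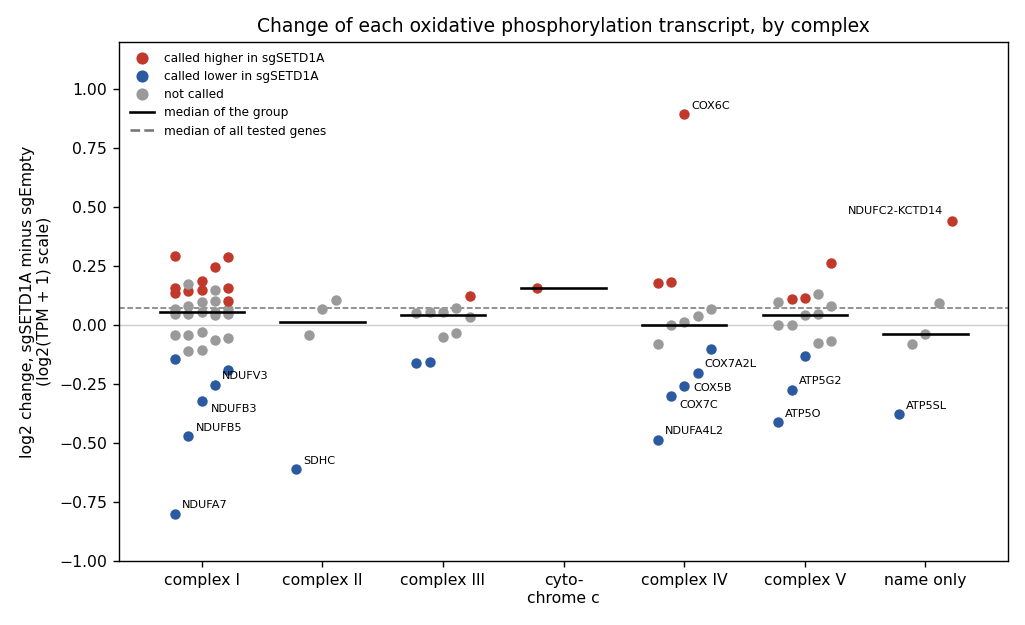
Log2 change (sgSETD1A minus sgEmpty, log2(TPM + 1) scale) of each of the 84 genes, by complex, with 1 point a gene. Colour shows the limma call. The group "name only" holds the 5 genes that match the name pattern but were not counted as subunits. COX6C stands apart at 0.90 and NDUFA7 at -0.80, while group medians stay between -0.04 and 0.16.

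**Figure D2:**
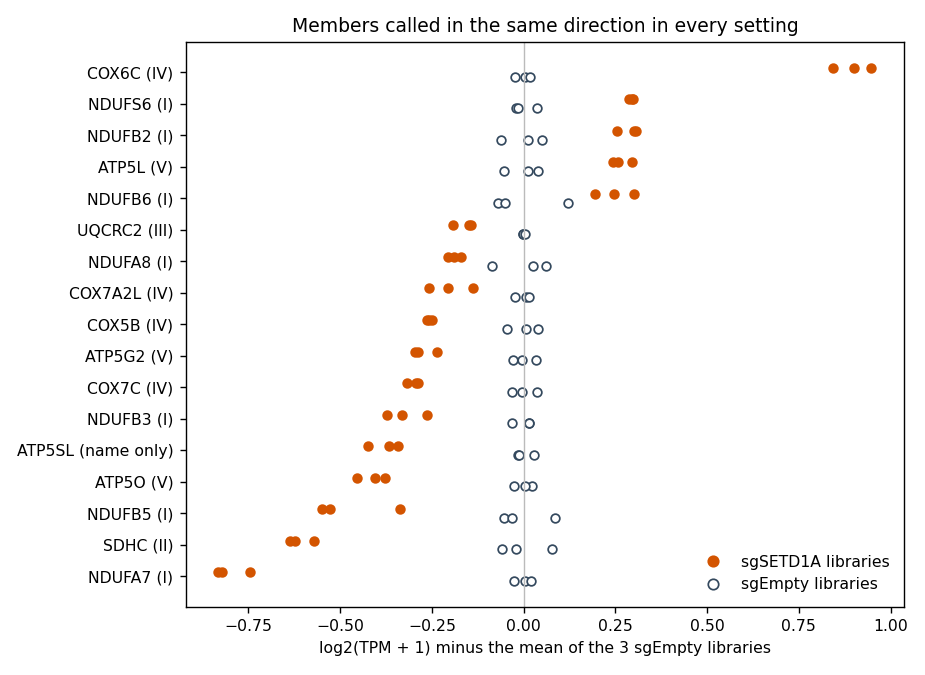
The 17 genes called in 1 direction under every alternative, each library's log2(TPM + 1) minus the mean of the 3 sgEmpty libraries; filled points are sgSETD1A libraries, open points sgEmpty libraries, and the complex is in brackets. In each of the 17 the 3 sgSETD1A libraries lie on one side of all 3 sgEmpty libraries. The 17 were chosen by their calls in these same libraries, so the separation adds no support. The groups did not overlap in 53.7% of all tested genes.

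Promoter windows were read because many of these genes are known targets of the factors NRF1, GABP (an ETS family protein) and YY1. RefSeq windows of 300 bases (GRCh38.p14, 250 before to 50 after the transcript start) matched 64 of the 79 genes that encode subunits or cytochrome c, with 78 windows. The ETS word CCGGAAG, on either strand, stood in 26.9% of these windows, against 10.3% of all 35116 windows. The NRF1 core word GCATGCG stood in 20.5%, against 3.91%, and the YY1 core word ATGGCGG in 29.5%, against 5.55%. All 35116 windows were not limited to tested genes. Each window reaches 50 bases past the transcript start, so a match can lie in transcribed sequence. Windows with the ETS word were 3 of 12 for genes called higher, 4 of 18 for genes called lower and 14 of 48 for genes not called. For the NRF1 word these were 3 of 12, 4 of 18 and 9 of 48, and for the YY1 word 2 of 12, 2 of 18 and 19 of 48. A match is a description of letters, not of binding. The windows below belong, in each direction, to the gene with the largest change among those called under every alternative, COX6C passed over, and to the one with the largest change whose window holds the ETS word. COX6C, SDHC and NDUFB5 are given by name only, and no window of theirs was read for this choice. Capitals mark any of the 3 words on either strand.
NDUFA7 (lower), GRCh38.p14 chr19:8321326-8321625, - strand: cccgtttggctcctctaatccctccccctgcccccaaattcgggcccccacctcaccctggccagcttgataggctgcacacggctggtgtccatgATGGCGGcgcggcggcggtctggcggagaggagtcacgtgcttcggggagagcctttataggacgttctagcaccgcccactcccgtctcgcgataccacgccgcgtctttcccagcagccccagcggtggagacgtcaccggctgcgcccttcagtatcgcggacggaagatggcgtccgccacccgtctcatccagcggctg
COX5B (lower), GRCh38.p14 chr2:97645812-97646111, + strand: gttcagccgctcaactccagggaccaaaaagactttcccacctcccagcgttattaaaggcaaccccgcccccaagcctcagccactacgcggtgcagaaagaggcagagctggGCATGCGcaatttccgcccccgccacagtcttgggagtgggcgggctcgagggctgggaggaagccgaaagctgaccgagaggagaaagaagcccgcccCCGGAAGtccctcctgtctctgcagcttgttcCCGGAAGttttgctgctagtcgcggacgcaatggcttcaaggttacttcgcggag
NDUFS6 (higher), GRCh38.p14 chr5:1801157-1801456, + strand: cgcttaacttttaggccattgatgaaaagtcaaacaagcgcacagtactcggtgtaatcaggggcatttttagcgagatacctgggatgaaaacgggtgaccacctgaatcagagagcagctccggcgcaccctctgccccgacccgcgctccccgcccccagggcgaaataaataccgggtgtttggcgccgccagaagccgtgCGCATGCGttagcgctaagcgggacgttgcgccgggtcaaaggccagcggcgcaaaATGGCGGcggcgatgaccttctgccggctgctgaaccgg
ATP5L, now ATP5MG (higher), GRCh38.p14 chr11:118401356-118401655, + strand: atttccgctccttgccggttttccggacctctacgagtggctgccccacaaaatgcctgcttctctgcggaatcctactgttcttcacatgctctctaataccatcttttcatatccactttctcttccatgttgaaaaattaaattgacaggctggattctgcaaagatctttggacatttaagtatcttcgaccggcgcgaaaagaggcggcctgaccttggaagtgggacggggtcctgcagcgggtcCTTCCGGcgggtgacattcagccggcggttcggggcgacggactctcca
The COX5B window, of a gene that fell, holds the ETS word 2 times and the NRF1 word 1 time, and the ATP5L window, of a gene that rose, holds the ETS word 1 time. The NDUFA7 window holds the YY1 word 1 time. The NDUFS6 window holds the YY1 word 1 time and the NRF1 word 2 times, in matches on opposite strands that overlap. The choice of windows put the ETS word into both directions, so that is no result. Over the 78 windows counted above, each word occurred both among genes called higher and among genes called lower.

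Levels of the subunits of a complex spread widely, on the TPM scale, which is per length. In complex V, ATP5E, the epsilon subunit of the central stalk, averaged 6622 TPM in sgSETD1A and 6262 TPM in sgEmpty, and ATP5G3, one of the genes for the c ring, 123.2 and 114.0 TPM. ATP5E alone made up 49.3% to 49.8% of the summed complex V level in sgSETD1A libraries and 47.2% to 49.1% in sgEmpty libraries. Complex I ran from 1100.3 TPM in sgSETD1A and 1057 TPM in sgEmpty for NDUFA13 down to 31 and 37.0 TPM for NDUFV3. The median subunit of complex II stood at 114.8 TPM in sgSETD1A and 112.3 TPM in sgEmpty, that of complex III at 128.7 and 135.2 TPM, and that of complex IV at 632.3 and 625.8 TPM. Together the 84 transcripts took 3.55% to 3.60% of all TPM in sgSETD1A libraries and 3.46% to 3.51% in sgEmpty libraries, and their sum without COX6C was 34076 ± 293 TPM in sgSETD1A and 33923 ± 269 TPM in sgEmpty (SD, n = 3 each).

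**Figure D3:**
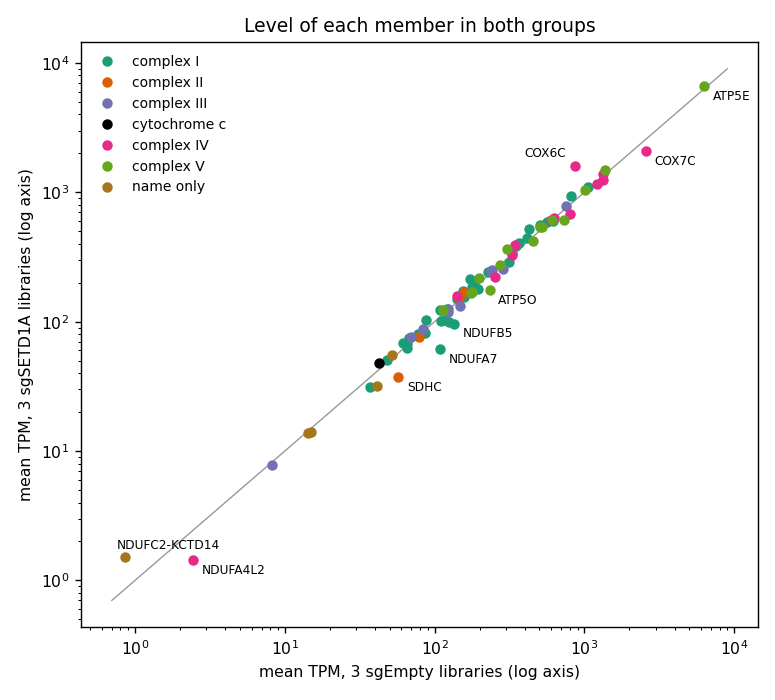
Mean TPM of each of the 84 genes in 3 sgSETD1A libraries (vertical, log axis) and 3 sgEmpty libraries (horizontal, log axis), coloured by complex, with the line of equal levels. The lowest points are NDUFA4L2 (1.44 TPM in sgSETD1A and 2.44 TPM in sgEmpty) and NDUFC2-KCTD14 (1.5 and 0.862 TPM), the highest is ATP5E (6622 and 6262 TPM), and COX6C lies farthest above the line.

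The 7 genes under the filter were COX6A2, COX6B2, COX4I2, COX7B2, ATP5L2, COX7A1 and COX8C. Just outside it lay COX8C, with a mean of 0.625 TPM over the 6 libraries, and just inside it NDUFC2-KCTD14 and NDUFA4L2, with 1.18 and 1.94 TPM. COX6A2 and COX7A1, the isoforms of heart and skeletal muscle, were listed at 0 in every library and at up to 0.382 TPM. COX4I2, the lung isoform, was listed at 0 in every library except 1 of sgEmpty. Their common counterparts COX6A1, COX7A2 and COX4I1 were all above 300 TPM.

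Complex I takes electrons from NADH in its N module, passes them to ubiquinone in its Q module and pumps protons in its membrane arm. Of its 36 tested subunits 10 rose, 6 fell and 20 did not pass, with a median change of 0.06 log2. The higher calls made up 27.8% and the lower calls 16.7%, close to the 28% and 13.5% of all tested genes. After median-ratio rescaling 4 rose and 9 fell, beside 14.9% higher and 19.6% lower among all tested genes. Without sgSETD1A replicate 2 or sgEmpty replicate 2 the rises numbered 6. The Q module had 2 falls (25%) and no rise among 8 subunits. The membrane arm had 8 rises (40%) and 3 falls (15%) among 20. The N module had 2 rises (25%) and 1 fall (12.5%) among 8.

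NDUFA7, an accessory subunit of the Q module, fell the most of all 84. It measured 64.2, 60.4 and 60.9 TPM in sgSETD1A libraries, against 108.7, 106.5 and 109.9 TPM in sgEmpty libraries. The groups were far apart, and the log2 change was -0.80 (SE 0.039; limma adjusted p = 3.24e-06), the 82nd lowest of the 11885 tested genes. The sum of the Q module was 813.6 ± 5.95 TPM in sgSETD1A and 865.4 ± 8.56 TPM in sgEmpty (SD, n = 3 each), with no overlap between the groups. Without NDUFA7 it was 751.8 ± 5.01 TPM in sgSETD1A and 757.0 ± 7.26 TPM in sgEmpty, and the groups overlapped.

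In the membrane arm, NDUFB5 and NDUFB3, both accessory subunits, were among the falls. NDUFB5 measured 106.0, 91.3 and 92.7 TPM in sgSETD1A, against 129.1, 142.3 and 131.3 TPM in sgEmpty (-0.47 log2, SE 0.061; limma adjusted p = 3.96e-04), and sgSETD1A replicate 1 lay nearest to the sgEmpty libraries. NDUFB3 measured 98.2, 95.4 and 103.1 TPM in sgSETD1A, against 121.2, 125.2 and 125.1 TPM in sgEmpty (-0.32 log2; limma adjusted p = 2.96e-04). NDUFA8 changed by -0.19 log2. Against these, NDUFB2 rose, with 525.7, 523.9 and 507.0 TPM in sgSETD1A and 406.9, 428.0 and 440.2 TPM in sgEmpty (0.29 log2, SE 0.035; limma adjusted p = 2.85e-04). NDUFB6 rose by 0.25 log2 and NDUFA1 by 0.19 log2, and the call of NDUFA1 was lost after quantile normalization (limma adjusted p = 0.184). The other rises of the arm, NDUFA3, NDUFB4, NDUFB11, NDUFC2 and NDUFS5, lay between 0.10 and 0.16 log2 and none of them was called after median-ratio rescaling. Of these, NDUFB4, NDUFB11 and NDUFC2 were also lost without several single libraries, sgSETD1A replicate 2 and sgEmpty replicate 2 among them, with adjusted p up to 0.167.

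In the N module, NDUFS6, an accessory subunit needed late in assembly, rose and NDUFV3 fell. NDUFS6 stood at 212.4, 211.3 and 212.6 TPM in sgSETD1A libraries, against 177.3, 170.5 and 170.8 TPM in sgEmpty libraries (0.29 log2, SE 0.032; limma adjusted p = 1.45e-04), with very little spread in either group. NDUFV3 measured 29.3, 28.9 and 34.8 TPM in sgSETD1A and 37.2, 37.0 and 36.6 TPM in sgEmpty (-0.25 log2; limma adjusted p = 0.0163). Its replicate 3 in sgSETD1A lay close to the sgEmpty libraries, and the call was lost without sgSETD1A replicate 2 (limma adjusted p = 0.0593). NDUFA2 was the other rise (0.16 log2), lost under both rescalings and without sgSETD1A replicate 1 or 2 or sgEmpty replicate 2 (adjusted p up to 0.105). The core subunits NDUFV1, NDUFV2 and NDUFS1 did not pass, at 0.04, -0.04 and -0.06 log2.

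Complex II oxidises succinate and belongs to both the citric acid cycle and the chain; all its subunits are nuclear-encoded. Of the 4, SDHC fell (25%, against 13.5% of all tested genes) and the other 3 did not pass. SDHC, one of its membrane anchors, measured 38.2, 36.5 and 36.8 TPM in sgSETD1A libraries, against 54.9, 60.5 and 56.4 TPM in sgEmpty libraries. The groups lay well apart (-0.61 log2, SE 0.048; limma adjusted p = 2.96e-05). SDHD, the other anchor, averaged 75.9 ± 1.95 TPM in sgSETD1A and 78.3 ± 3.22 TPM in sgEmpty (SD, n = 3 each; limma adjusted p = 0.445). The flavoprotein SDHA measured 171.0, 167.4 and 168.9 TPM in sgSETD1A, against 164.2, 157.5 and 150.0 TPM in sgEmpty, which do not overlap but missed the threshold (0.11 log2; limma adjusted p = 0.0549). Without sgEmpty replicate 1 SDHA passed, at 0.14 log2. SDHB, the iron-sulfur subunit, averaged 153.7 ± 6.97 TPM in sgSETD1A and 146.4 ± 2.35 TPM in sgEmpty (SD, n = 3 each; limma adjusted p = 0.190).

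Complex III had the narrowest spread, with changes from -0.16 to 0.13 log2 among 10 genes. Of these 1 rose (10%), 2 fell (20%) and 7 did not pass. Among all tested genes 28% were higher and 13.5% lower. After median-ratio rescaling none rose and 3 fell, beside 14.9% higher and 19.6% lower among all tested genes. UQCRC2, a core protein, stood at 259.5, 251.7 and 260.9 TPM in sgSETD1A libraries and at 287.8, 287.6 and 288.7 TPM in sgEmpty libraries, and fell (-0.16 log2, SE 0.030; limma adjusted p = 0.00241). UQCRQ, a small subunit, measured 141.6, 130.0 and 125.9 TPM in sgSETD1A and 147.1, 150.4 and 145.0 TPM in sgEmpty (-0.16 log2; limma adjusted p = 0.0232). The UQCRQ call was lost without sgSETD1A replicate 2 or 3 or sgEmpty replicate 1 or 2 (adjusted p up to 0.0910). UQCR11 was the 1 rise (0.13 log2; limma adjusted p = 0.0452), lost under both rescalings and without every library but sgEmpty replicate 3 (adjusted p up to 0.175). The catalytic subunits, cytochrome c1 (CYC1) and the Rieske protein (UQCRFS1), did not pass. CYC1 measured 242.6, 257.3 and 244.4 TPM in sgSETD1A and 243.9, 238.8 and 232.8 TPM in sgEmpty, with overlapping groups (0.06 log2; limma adjusted p = 0.225).

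Cytochrome c itself, CYCS, measured 50.04, 45.9 and 47.5 TPM in sgSETD1A libraries, against 41.6, 43.0 and 43.7 TPM in sgEmpty libraries. It rose by 0.16 log2 (SE 0.047; limma adjusted p = 0.0230), a call lost under both rescalings (adjusted p = 0.228 and 0.0896) and without sgSETD1A replicate 3 or sgEmpty replicate 1 or 2 (adjusted p up to 0.0697). RefSeq names 45 pseudogenes after CYCS, the most of any of the 84, and 245 after all 91 symbols together. None of the 245 is listed in the expression table, so single values of genes with many such copies are uncertain.

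Complex IV held the largest single rise of the 84 genes. Of its 13 tested genes 3 rose (23.1%), 5 fell (38.5%) and 5 did not pass. Among all tested genes 28% were higher and 13.5% lower. The median change of complex IV was 0.00 log2, and 10 of 13 lay below the median of all genes. After median-ratio rescaling 1 rose and 6 fell, beside 14.9% higher and 19.6% lower among all tested genes. COX6C, a small membrane subunit, measured 1553, 1614 and 1669 TPM in sgSETD1A libraries, against 850.7, 867.7 and 875.8 TPM in sgEmpty libraries. It rose 1.86-fold (0.90 log2, SE 0.031; limma adjusted p = 4.21e-07), the 33rd highest change of 11885 genes, and stayed called under every alternative. COX6C has 18 pseudogenes named after it. It lies on chromosome 8, as do 3 other genes of the set, and none of those passed: CYC1 at 0.06, UQCRB at 0.07 and NDUFB9 at 0.05 log2.

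The rest of complex IV went the other way in sum. COX7C, the most abundant of its transcripts, measured 2095, 2054 and 2087 TPM in sgSETD1A, against 2506, 2625 and 2551 TPM in sgEmpty (-0.30 log2, SE 0.025; limma adjusted p = 3.87e-05). COX5B, which binds zinc, measured 671.3, 677.5 and 673.7 TPM in sgSETD1A, against 810.1, 828.0 and 781.9 TPM in sgEmpty (-0.26 log2, SE 0.029; limma adjusted p = 1.81e-04). COX7A2L, which links complexes III and IV in supercomplexes, changed by -0.20 log2, and COX4I1 by -0.10 log2. COX5A and NDUFA4 rose by 0.18 log2 each, a call that neither kept after median-ratio rescaling (adjusted p = 0.109 and 0.107). NDUFA4L2, a paralog of NDUFA4 induced by low oxygen, was barely detected, at 1.21, 1.62 and 1.47 TPM in sgSETD1A and 2.03, 3.24 and 2.06 TPM in sgEmpty. Its call (-0.48 log2; limma adjusted p = 0.0241) was lost without sgSETD1A replicate 1 or 3 or sgEmpty replicate 2 (adjusted p up to 0.0781).

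COX6C offset those falls in the total. The sum of complex IV was 10493 ± 53.8 TPM in sgSETD1A and 10394 ± 133 TPM in sgEmpty, and without COX6C it was 8881 ± 98.7 TPM in sgSETD1A and 9529 ± 139 TPM in sgEmpty (SD, n = 3 each). The sum without COX6C was lower in every sgSETD1A library than in any sgEmpty library. COX6C was left out after its rise in these same libraries was seen, so this separation adds no support. COX7C alone averaged 2079 TPM in sgSETD1A and 2561 TPM in sgEmpty, the largest fall in TPM among these genes. No sum was taken without both COX6C and COX7C, so a broad fall of the rest was not shown. COX6C made up 14.7% to 15.9% of the complex IV sum in sgSETD1A libraries and 8.17% to 8.54% in sgEmpty libraries. Set against COX4I1, its level was 1.25 to 1.35 times as high in sgSETD1A libraries and 0.640 to 0.667 times as high in sgEmpty libraries.

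**Figure D4:**
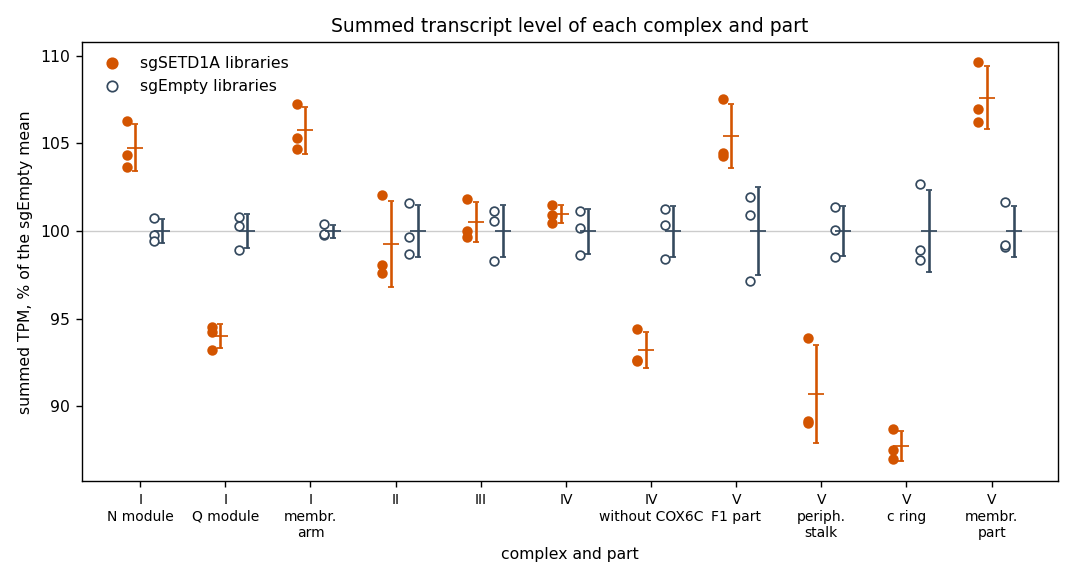
Summed TPM of the tested genes of each complex or part in each library, as a percentage of the mean of the 3 sgEmpty libraries; filled points are sgSETD1A libraries, open points sgEmpty libraries, and bars are the mean ± SD (n = 3). The vertical axis does not start at 0. The c ring lies lowest in sgSETD1A (897.6 against 1023 TPM), and complex IV lies near 100% with COX6C and below it without.

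Complex V couples a catalytic F1 head and central stalk to a c ring in the membrane, held by a peripheral stalk. Of 15 tested genes 3 rose (20%), 3 fell (20%) and 9 did not pass, with a median change of 0.04 log2. Among all tested genes 28% were higher and 13.5% lower. After median-ratio rescaling 1 rose and 3 fell, beside 14.9% higher and 19.6% lower among all tested genes. None of the 5 genes of the head and central stalk passed. Their changes ran from 0.04 log2 for the catalytic subunit ATP5B to 0.13 log2 for ATP5D. ATP5E measured 6743, 6571 and 6551 TPM in sgSETD1A and 5994, 6448 and 6345 TPM in sgEmpty, which do not overlap but missed the threshold (0.08 log2; limma adjusted p = 0.0521).

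In the peripheral stalk 2 of 4 genes fell (50%, against 13.5% of all tested genes) and none rose. ATP5O (now ATP5PO), which encodes the protein that joins stalk and head, measured 170.0, 176.0 and 179.3 TPM in sgSETD1A libraries, against 228.8, 236.8 and 234.0 TPM in sgEmpty libraries. The groups were far apart (-0.41 log2, SE 0.034; limma adjusted p = 3.31e-05). ATP5H (now ATP5PD) changed by -0.13 log2 (limma adjusted p = 0.0159), a call lost without sgSETD1A replicate 2 or 3 or sgEmpty replicate 3 (adjusted p up to 0.0606). The stalk's sum was 1034 ± 31.6 TPM in sgSETD1A and 1140.4 ± 16.3 TPM in sgEmpty (SD, n = 3 each). Without ATP5O it was 859.3 ± 36.1 TPM in sgSETD1A and 907.2 ± 13.9 TPM in sgEmpty, with sgSETD1A replicate 1 above sgEmpty replicate 1.

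The c ring is encoded by 3 genes whose mature proteins are identical, and they changed unequally. ATP5G2 (now ATP5MC2) fell, at 598.3, 623.3 and 601.9 TPM in sgSETD1A against 752.3, 719.2 and 732.1 TPM in sgEmpty (-0.27 log2, SE 0.030; limma adjusted p = 1.60e-04). ATP5G1 did not pass (-0.07 log2; limma adjusted p = 0.340). ATP5G3 rose by 0.11 log2 (limma adjusted p = 0.0486), a call lost under both rescalings and without every library but sgSETD1A replicate 3 (adjusted p up to 0.147). Without ATP5G2 the ring's sum was 289.8 ± 4.90 TPM in sgSETD1A and 288.5 ± 9.34 TPM in sgEmpty (SD, n = 3 each), with overlapping groups. ATP5G2 gave 67.2% to 68.7% of the c ring sum in sgSETD1A libraries and 71.5% to 72.3% in sgEmpty libraries. In the membrane part, ATP5L (now ATP5MG), the g subunit, rose, with 374.3, 360.9 and 364.7 TPM in sgSETD1A and 293.9, 313.3 and 307.4 TPM in sgEmpty (0.27 log2, SE 0.034; limma adjusted p = 3.50e-04). ATP5J2 (now ATP5MF), the f subunit, rose by 0.11 log2, a call lost after median-ratio rescaling (adjusted p = 0.376).

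Of the 5 genes that match the name pattern but were not counted as subunits, ATP5SL fell and NDUFC2-KCTD14 rose. ATP5SL measured 31.9, 32.5 and 30.6 TPM in sgSETD1A, against 41.0, 41.0 and 42.2 TPM in sgEmpty (-0.38 log2, SE 0.045; limma adjusted p = 2.39e-04). NDUFC2-KCTD14 measured 1.46, 1.46 and 1.59 TPM in sgSETD1A, against 0.485, 1.07 and 1.03 TPM in sgEmpty (0.44 log2; limma adjusted p = 0.0328). It shares exons with NDUFC2, its value is uncertain, and its call was lost under both rescalings, without any 1 of the sgSETD1A libraries and without sgEmpty replicate 1 (adjusted p up to 0.0908).

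Assembly factors, which build the complexes and are no part of them, were also called in both directions. Of 47 tested assembly factors 6 rose and 14 fell, with a median change of -0.03 log2. Their higher calls made up 12.8% and their lower calls 29.8%, against 28% and 13.5% of all tested genes. In either direction 42.6% were called, against 41.5% of all tested genes. After median-ratio rescaling 2 rose and 15 fell, beside 14.9% higher and 19.6% lower among all tested genes. For complex IV, 6 of 21 factors fell (28.6%) and 3 rose (14.3%). These rises were lost under both rescalings and numbered 1 without sgSETD1A replicate 2 or sgEmpty replicate 1. SURF1, an early factor of complex IV, measured 64.8, 61 and 64.7 TPM in sgSETD1A libraries, against 127.4, 126.6 and 122.2 TPM in sgEmpty libraries (-0.97 log2, SE 0.040; limma adjusted p = 1.49e-06). COX15, which makes the haem A of complex IV, measured 6.90, 6.84 and 6.92 TPM in sgSETD1A, against 12.8, 13.9 and 13.4 TPM in sgEmpty (-0.86 log2; limma adjusted p = 1.51e-05). The 2 groups lay far apart for both genes. The largest rises were COX19 (0.23 log2; lost without sgSETD1A replicate 2 or 3 or sgEmpty replicate 1 or 2, adjusted p up to 0.112) and C19orf79, now PET100 (0.15 log2).

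For complex I, 6 of 15 factors fell (40%, against 13.5% of all tested genes) and 3 rose (20%, against 28%). NUBPL, which supplies iron-sulfur clusters to complex I, measured 7.93, 6.43 and 7.47 TPM in sgSETD1A, against 14, 12.9 and 13.8 TPM in sgEmpty (-0.82 log2, SE 0.080; limma adjusted p = 8.49e-05). TMEM186 changed by -0.61 log2, while C2orf56 (now NDUFAF7) rose by 0.33 and C8orf38 (now NDUFAF6) by 0.24 log2. For complex II, SDHAF4 (listed as C6orf57) and SDHAF1 fell among 3 factors (-0.29 and -0.20 log2). The call of SDHAF4 was lost without sgSETD1A replicate 2 or 3 or sgEmpty replicate 2 or 3 (adjusted p up to 0.101), and that of SDHAF1 without sgSETD1A replicate 2 or sgEmpty replicate 1 (up to 0.0708). None of the 5 factors of complex III or the 3 of complex V passed; 1 factor of complex III was lower without sgSETD1A replicate 2, and 1 of complex V after median-ratio rescaling.

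**Figure D5:**
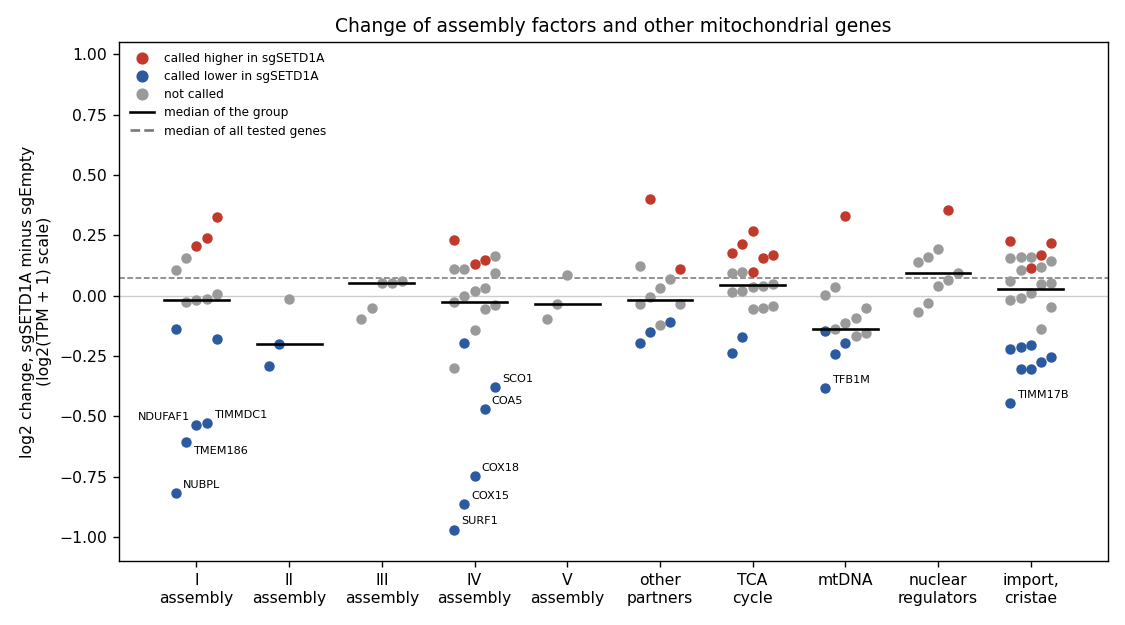
Log2 change (sgSETD1A minus sgEmpty, log2(TPM + 1) scale) of assembly factors and of other mitochondrial genes, by list, with 1 point a gene, coloured by its limma call. The lowest points are SURF1 at -0.97, COX15 at -0.86 and NUBPL at -0.82.

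Other genes of the pathway were also split. Of 18 tested genes of the citric acid cycle and pyruvate dehydrogenase 6 rose (33.3%) and 2 fell (11.1%). Among all tested genes 28% were higher and 13.5% lower. After median-ratio rescaling 2 of the 18 rose and 4 fell, beside 14.9% higher and 19.6% lower among all tested genes. Without sgEmpty replicate 2 there were 3 rises. PDHA1 rose by 0.27 and IDH3G by 0.21 log2, while FH, which encodes fumarase, changed by -0.24 and SUCLG2 by -0.17 log2; 1 fell without either of sgSETD1A replicates 2 and 3 or without any 1 sgEmpty library, because SUCLG2 was lost (adjusted p up to 0.0835). Of 13 genes of mitochondrial DNA upkeep and transcription 1 rose (7.69%) and 4 fell (30.8%). After median-ratio rescaling 1 rose and 9 fell, where 19.6% of all tested genes were lower in place of 13.5%. TFB1M, which methylates mitochondrial ribosomal RNA, changed by -0.38 and C20orf72 (now MGME1) by -0.24 log2, and the polymerase POLG rose by 0.33 log2. TFAM, which packages and transcribes mitochondrial DNA, averaged 69.5 ± 2.64 TPM in sgSETD1A and 72 ± 1.75 TPM in sgEmpty (SD, n = 3 each; limma adjusted p = 0.373; called lower after median-ratio rescaling, adjusted p = 0.0487).

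Of 9 tested nuclear regulators of these genes 1 rose (11.1%, against 28% of all tested genes) and none fell. The rise was GABPB1, the partner of the ETS protein GABPA, at 56.7, 58.3 and 57 TPM in sgSETD1A libraries, against 44.2, 46.3 and 43.2 TPM in sgEmpty libraries (0.36 log2, SE 0.043; limma adjusted p = 2.63e-04). GABPA, NRF1 and YY1 did not pass, at -0.07, 0.19 and 0.10 log2, and the coactivator PPARGC1A stayed at or under 0.0908 TPM. Without sgSETD1A replicate 1 or sgEmpty replicate 3, 2 regulators rose. Of 26 genes of protein import and cristae 4 rose (15.4%) and 8 fell (30.8%), against 28% and 13.5% of all tested genes. After median-ratio rescaling 1 of the 26 rose and 9 fell, beside 14.9% higher and 19.6% lower among all tested genes. Without sgSETD1A replicate 2 or sgEmpty replicate 3 there were 2 rises. The translocase genes TIMM17B and TOMM7 changed by -0.45 and -0.30 log2, and TIMM8A and TOMM5 rose by 0.22 log2 each, of which TOMM5 was not called after median-ratio rescaling (adjusted p = 0.0501). Of 12 partners outside the name pattern 2 rose (16.7%) and 3 fell (25%). Only 1 of them rose without sgSETD1A replicate 1 or 3 or sgEmpty replicate 3. Only 1 fell without sgSETD1A replicate 3 or sgEmpty replicate 1. DHODH, a pyrimidine synthesis enzyme that feeds electrons to ubiquinone, rose by 0.40 log2, and ETFA rose by 0.11 log2, a call lost under both rescalings (adjusted p = 0.533 and 0.234) and without sgSETD1A replicate 1 or 3 or sgEmpty replicate 2 or 3 (up to 0.0950). ETFB, the other subunit of the same electron carrier, changed by -0.20 log2, and ATPIF1, the inhibitor of ATP synthase, by -0.15 log2, which was lost without sgSETD1A replicate 3 or sgEmpty replicate 1 or 3 (adjusted p up to 0.0846).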

How the data were processed

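The expression table deposited by the authors holds TPM values, a length-scaled signal, for 19035 gene symbols in 6 libraries; 1 row without a gene name repeats the column total and was left out. Per the submitters' processing notes, STAR 2.6.0c, RSEM 1.3.1, bcl2fastq 2.20.0 and hg19 were used; their roles are not given in the sources used here. Library preparation was a stranded mRNA kit, per the labels' protocols, and whether counting used strand is not given. TPM keeps no depth, so no count test was run.

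Genes with a mean of at least 1 TPM were tested on log2(TPM + 1) with limma 3.58.1 (R 4.3.3; prior variance trended on mean level), with Benjamini-Hochberg adjustment over all 11885 genes and a threshold of 0.05. Log2 changes understate those of low genes. The fit was tested on simulated data. The genes, their lists and the rule for named genes (COX6C, CYC1, CYCS, the SDH genes, called genes at least 0.3 log2 from the median of all genes, the 2 farthest in a complex with fewer than 2 such genes, and the 2 largest calls a direction in other lists; a few others were named after their values were seen) were chosen with earlier results of these data known. The promoter words, the windows shown and the sums without 1 gene were also chosen after seeing the data. Of 91 symbols, 69 are current in RefSeq (GRCh38.p14), 21 matched as synonyms and 1 (NDUFA4) matched more than 1 gene. No hg19 coordinates are printed. Of the called genes, 1 is not described individually here. Alternatives were median-ratio rescaling, quantile normalization, pseudocounts of 0.1 and 5, no filter, a mean of at least 5 TPM, no trend, a replicate block and each library left out.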

Additional observations from a re-analysis of the deposited data

How the results depend on the processing

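The 19 higher and 18 lower calls of the 84 genes were most sensitive to scaling: 6 were higher after median-ratio rescaling, 8 after quantile normalization and 12 in limma without trend, while the lower calls stayed between 14 and 23 over every alternative. Leaving out 1 library gave 13 to 16 higher and 14 to 18 lower calls. Of all tested genes 3327 were higher as deposited, against 1766 under median-ratio rescaling and 2142 under quantile normalization; 3044 and 1477 were higher and lower without a filter. In the other lists together 20 were higher and 31 lower; 8 were higher under median-ratio rescaling, 11 under quantile normalization, and 14 to 20 higher and 24 to 31 lower without 1 library. The median change of a complex minus that of all tested genes was -0.015 log2 for complex I, -0.061 for II, -0.030 for III, -0.071 for IV and -0.031 for V. It moved by more than the spread between replicates for complex I at a pseudocount of 5 (-0.0011), without a filter (0.014) and without 1 library (-0.017 to 0.0041), for complex III without a filter (-0.000805) and without 1 library (-0.054 to -0.012), and for complex V after quantile normalization (-0.058) and without a filter (-0.0021). Without 1 library it ran from -0.089 to -0.040 for complex II, -0.097 to -0.041 for IV and -0.052 to -0.018 for V. The cause was not tested.

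With a replicate block 17 of the 84 were higher and 18 lower, 34 of the 37 calls were kept, 3 were lost and 1 was gained. Deviations of same-numbered libraries correlated at 0.0845, -0.104 and 0.169 across genes, and sgSETD1A replicate 1 correlated best with sgEmpty replicate 2 (0.139), so the numbers were not taken to pair the libraries. No called gene of the 84 turned direction under any alternative. With depth unknown, changes of genes near 1 TPM, such as NDUFA4L2, are the least certain.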
